A study of Salmo salar with 60 samples.

Results

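The comparison was between Atlantic salmon fed soybean meal for 5 days and salmon sampled on day 0, before any soybean meal was given. It used 19 of the 60 arrays of the series, chosen by sample title alone, of which 10 held fish of day 5 and 9 held fish of day 0. Each array carried Cy5-labelled cRNA from the distal intestine of 1 fish against Cy3-labelled cRNA from a common pool. The pool held 18 fish, 3 from each of the 6 sampling days. Log ratios were centred near 0 within each array by loess. A log2(Cy5/Cy3) above 0 thus marks a ratio to the pool above the centre of probes of similar signal on that array. The raw Cy5 signal can be above that of Cy3 where the log2 ratio is below 0. All fish were of the Sunndalsøra breed, kept in seawater tanks and adapted to a diet with fishmeal as the protein source. Day 0 fish had eaten that diet only, and day 5 fish then received a diet in which defatted, hexane-extracted soybean meal replaced part of the fishmeal. The labels give no age, and fish were taken only if they had content along the whole gut.

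Soybean meal enteritis is an inflammation of the distal intestine of salmonids that eat soybean products. Mucosal folds shorten, enterocytes lose their absorptive vacuoles, and the lamina propria widens as inflammatory cells enter it. The distal intestine takes up macromolecules and has a dense population of immune cells, and it is the segment in which these changes are described.

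The design sets limits on what the comparison can show. Fish came from duplicate tanks, 4 fish of tank 1 and 5 of tank 2 on day 0, and 5 of each on day 5. The p-values therefore measure the spread between fish, and the effects of diet, time and sampling occasion cannot be told apart, because the labels give no group kept on fishmeal until day 5. The array annotation used here names each probe only by its position, such as C238R016, so no gene, cell type marker or sequence can be given, and the tissue label could not be checked against markers. In whole tissue, fewer cells of a type and less RNA per cell cannot be told apart.

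Of 43627 probes tested, 16429 were called bright, with a median Cy5 signal of 200 or more over the 19 arrays, and 27198 were dim. The dimmest bright probe had a median of 200 and the brightest dim probe one of 199.5. The median Cy5 signal of all probes on an array ran from 58.5 to 97 on day 0, with a median of 67.5, and from 58.5 to 111 on day 5, with a median of 80.5. The likeness of log ratios between fish varied widely on both days. Between the 171 pairs of the 19 arrays, Pearson's r of the log ratios over all probes ran from -0.348 to 0.555, with a median of 0.152, and over bright probes from -0.463 to 0.742. Within day 0, r over bright probes ran from -0.455 to 0.686 (36 pairs, median 0.223). Within day 5 it ran from -0.340 to 0.641 (45 pairs, median 0.211). These r describe how alike the departures from the pool were and not their size. The direction of each ratio was kept, because the labels give Cy5 to the fish on every array. Fish of each day fell into 2 separate ranges of the first principal component, described below. Counts of bright probes by unadjusted limma p are given with all fish and with single fish left out.

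No probe separated day 5 from day 0. With limma and Benjamini-Hochberg adjustment, 0 of 43627 probes (0%) had an adjusted p under 0.05, and the smallest adjusted p was 0.989. Without adjustment, 1756 probes had a p under 0.05, or 4.03% of all. With array quality weights there were 3926 of all probes and 14.1% of the bright ones, again with 0 past the adjusted threshold. Among bright probes 601 had such a p, or 3.66%, with 358 (2.18%) above and 243 (1.48%) below their day 0 level. Among dim probes there were 1155, or 4.25%. In 0 bright probes (0%) did all day 5 fish lie on 1 side of all day 0 fish.

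The bright-probe count was spread over the whole range of signal. Probes with a median Cy5 signal from 200 to 500 gave 178 of 4256, or 4.18%. Those from 500 to 2000 gave 228 of 6107, or 3.73%, and those from 2000 to 10000 gave 127 of 4134, or 3.07%. Of the 1932 brightest, at 10000 or more, 68 (3.52%) had an unadjusted p under 0.05, and 34.3% of their Cy5 spots carried flag 3, whose meaning the files do not give.

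The 95% confidence interval of the difference lay wholly within a 2-fold change in either direction for 93.9% of bright probes, and its median half-width was 0.33 on the log2 scale. Within tank 1 this held for 76.8% of bright probes and within tank 2 for 88.7%, over fewer fish. For dim probes the share was 99.4%, but the offset of 50 added to both channels shrinks their differences. The median difference over all bright probes was 0.01.

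The count of bright probes depended on single fish. Without day 0 replicate 1, 2 or 7 it was 944, 1209 or 1173, which is 5.75%, 7.36% or 7.14% of bright probes. Without day 0 replicate 3, 4, 5, 8 or 9 it was 396, 400, 351, 373 or 373. Those are 2.41%, 2.43%, 2.14%, 2.27% or 2.27% of bright probes. Without day 5 replicate 2 the count was 1111, or 6.76%, and without day 5 replicate 9 it was 382, or 2.33%. The share of all probes in these fits ran from 3.27%, without day 0 replicate 5, to 5.81%, without day 0 replicate 2. In each of these fits, 0 probes passed the adjusted threshold in limma. The split between directions depended on the scaling: 59.6% of the 601 were higher on day 5 after loess, against 91.3% of 507 after centring each array on its median, which moved the median difference of bright probes from 0.01 to 0.11.

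**Figure D1:**
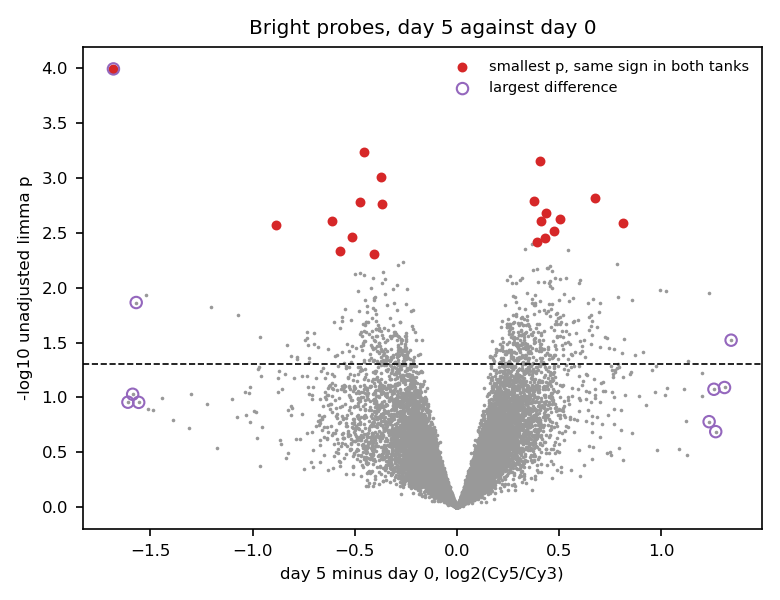
Difference between day 5 and day 0 in log2(Cy5/Cy3) (horizontal axis) against -log10 of the unadjusted limma p (vertical axis) for the 16429 bright probes, 1 point each. Red points are the 20 probes with the smallest p and the same sign in both tanks, purple rings the 10 with the largest differences, and the dashed line marks an unadjusted p of 0.05. C238R016 stands alone at the upper left with a difference of -1.68, while most of the other ringed probes lie low, with large differences and large errors.

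The bright probe with the smallest p and the largest difference was C238R016. Its log2 ratio ran from -0.94 to 1.78 on day 0, with a median of 1.14, and from -2.25 to 1.49 on day 5, with a median of -0.89. The groups overlapped, yet 9 of 10 day 5 fish lay below the day 0 mean and 5 lay below every day 0 fish. Day 5 replicate 1, from tank 2, was the exception at 1.49, and the next highest day 5 fish was at -0.69. The difference was -1.68 with a standard error of 0.403, a 3.21-fold lower level, with an unadjusted limma p of 1.0e-04 and an adjusted p of 0.989.

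The raw signals of C238R016 show the same order. The Cy5 signal had a median of 845 on day 0, in a range of 90 to 1889, and a median of 176.5 on day 5, in a range of 73 to 1419. The Cy3 signal of the pool was at most 565.5 on the 19 arrays. The day 5 median was thus below the signal limit for bright probes, and the probe was called bright by its median over both days, 329. Some fish of each day were near the dim end of the scale, where the added offset weighs most. Without the offset the difference was -1.99. Each tank gave a similar value against its own day 0 fish, -1.63 with a standard error of 0.600 in tank 1 and -1.67 with 0.565 in tank 2. On the 3 slides that held fish of both days the differences were -2.46, -2.61 and -1.71. The first and second of these each set 1 day 5 fish of tank 1 against 1 day 0 fish of tank 2. The third set 1 day 5 fish of tank 2 against 3 day 0 fish from both tanks. The slide values thus mix tank with day and rest on single day 5 fish. Leaving out 1 fish at a time gave differences from -1.95 to -1.53 in 19 fits, and the smallest adjusted limma p among them was 0.217, without day 5 replicate 1. The same fish chose this probe, partly by its sign in both tanks. The tank, slide and leave-out values are therefore a description and no separate check.

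C259R069 was lower on day 5 in more fish but by less. Its log2 ratio ran from -0.14 to 0.97 on day 0, with a median of 0.06, and from -0.74 to 0.06 on day 5, with a median of -0.25. Of 10 day 5 fish, 8 lay below every day 0 fish, and the highest day 0 value belonged to replicate 6 of tank 1, apart from the others. In that tank the other day 0 fish were at -0.06, 0.06 and 0.14. The difference was -0.45 with a standard error of 0.125, with an unadjusted limma p of 5.7e-04 and an adjusted p of 0.989. It was -0.70 in tank 1 and -0.24 in tank 2. The test of that difference between tanks gave an unadjusted limma p of 0.0767 and an adjusted p of 0.977. Leaving out 1 fish at a time gave differences over both tanks from -0.50 to -0.35.

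C058R167 ran from 0.08 to 0.68 on day 0, with a median of 0.40, and from -0.31 to 0.38 on day 5, with a median of 0.04. All 9 day 0 fish were above 0, while the day 5 fish were spread about it, 5 of them below every day 0 fish. The difference was -0.37 with a standard error of 0.107, with an unadjusted limma p of 9.7e-04 and an adjusted p of 0.989. It was -0.42 in tank 1 and -0.34 in tank 2.

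Among bright probes higher on day 5, C070R021 had the smallest p. Its log2 ratio ran from -0.55 to 0.24 on day 0, with a median of -0.09, and from -0.30 to 0.51 on day 5, with a median of 0.23. The groups overlapped, and 5 of 10 day 5 fish lay above every day 0 fish. The difference was 0.41 with a standard error of 0.115, a 1.33-fold higher level, with an unadjusted limma p of 7.1e-04 and an adjusted p of 0.989. It was 0.54 in tank 1 and 0.29 in tank 2.

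C182R153 ran from -0.65 to 0.30 on day 0, with a median of -0.33, and from -0.10 to 0.86 on day 5, with a median of 0.40. All 10 day 5 fish lay above the day 0 mean and 6 above every day 0 fish. Day 0 replicate 9, at 0.30, was the only day 0 fish with a log2 ratio above 0. The difference was 0.68 with a standard error of 0.204, with an unadjusted limma p of 0.0015 and an adjusted p of 0.989, and it was larger in tank 2, at 0.84, than in tank 1, at 0.49. The test of that difference between tanks gave an unadjusted limma p of 0.418 and an adjusted p of 0.977.

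C180R093 was the brightest of these probes, with a median Cy5 signal of 9554. It ran from -0.68 to 0.14 on day 0, with a median of -0.17, and from -0.22 to 0.48 on day 5, with a median of 0.18, so that 6 of 10 day 5 fish lay above every day 0 fish. The difference was 0.38 with a standard error of 0.115, with an unadjusted limma p of 0.0016 and an adjusted p of 0.989. It was 0.63 in tank 1 and 0.15 in tank 2, a contrast with an unadjusted limma p of 0.0413 and an adjusted p of 0.977. On 1 of the 3 slides with both days it had the opposite sign, -0.22.

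**Figure D2:**
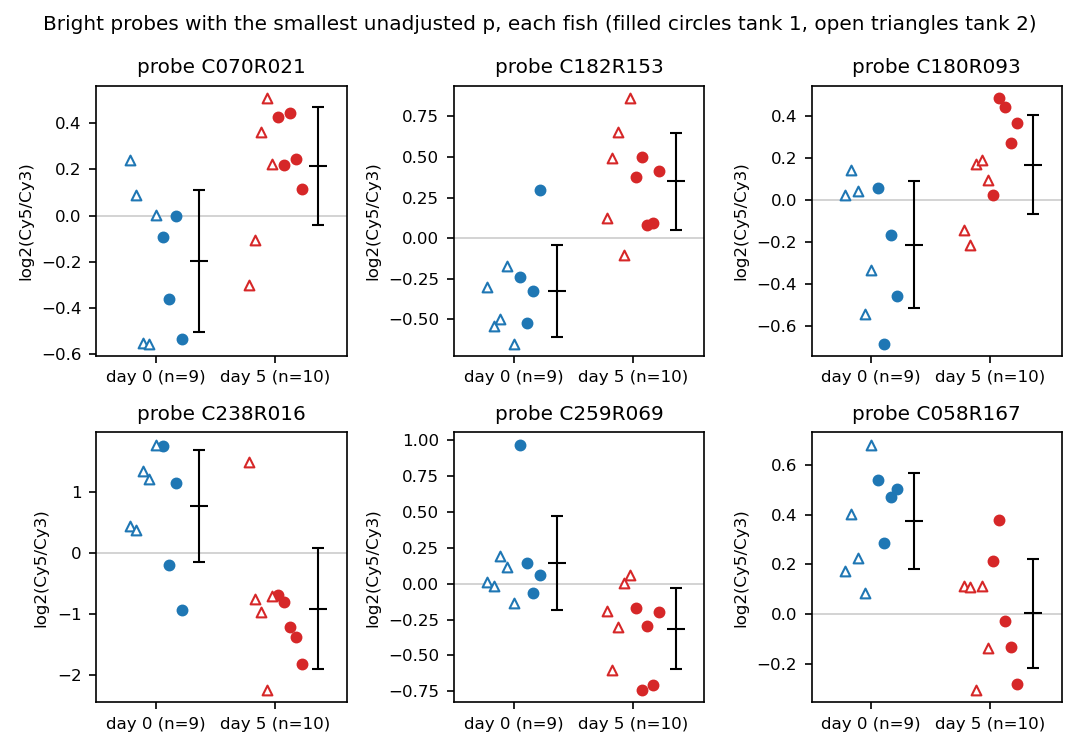
Log2(Cy5/Cy3) of each fish for the 3 higher and 3 lower bright probes with the smallest unadjusted p. Filled circles are fish of tank 1 and open triangles fish of tank 2, with the mean and standard deviation in black for 9 fish of day 0 and 10 of day 5. In every panel some day 5 fish lie within the range of day 0, and day 5 replicate 1 stands at 1.49 for C238R016, above the other 9.

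The remaining 14 probes chosen by p had smaller or more variable differences. The 10 higher probes differed by 0.38 to 0.82 and the 10 lower ones by -1.68 to -0.36, with adjusted p of 0.989 in limma throughout. C166R163, with a median Cy5 signal of 6485, had the largest difference among the higher ones, 0.82 with a standard error of 0.260. Its log2 ratio was above 0 in 0 of 9 day 0 fish and in 4 of 10 day 5 fish. C053R106 was lower by 0.89, a log2 difference of -0.89 with a standard error of 0.283, and its standard deviation was 0.777 over the 9 day 0 fish and 0.428 over the 10 day 5 fish. Among the lower probes, C161R022 and C220R142 also had a day 5 median Cy5 signal below the limit for bright probes. These medians were 177.75 and 189.25, against 277 and 251.5 on day 0. For C221R117 and C235R018, 7 of 10 day 5 fish lay outside the day 0 range, above it for C221R117 and below it for C235R018. Over the 3 slides with both days, 13 of the 20 kept their sign on all 3 and the other 7 on 2, against 13.5% and 54.6% of all bright probes. On these slides tank and day were mixed, as given above for C238R016. The fish on them were among those that chose the 20, so these counts are a description and no separate check.

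A change of over 2-fold was seen in 39 bright probes, or 0.237%, with 16 above and 23 below their day 0 level. Over all 43627 probes there were 49, of which 10 were dim, where the offset shrinks differences. Only 9 of the 39 had an unadjusted limma p under 0.05. The 39 were probes that varied widely before soybean meal: the standard deviation over the 9 day 0 fish was above 1 in 34 of them and had a median of 1.62, against 0.343 over all bright probes. The same day 0 fish entered the differences that chose these probes, so this spread is a description. The probes with the largest differences after C238R016 were C100R097 at -1.61 (standard error 0.994), C256R064 at -1.59 (0.931), C179R097 at -1.57 (0.617) and C052R113 at -1.56 (0.962). In the other direction they were C133R147 at 1.34 (0.605), C006R137 at 1.31 (0.739), C175R008 at 1.27 (0.990), C121R013 at 1.26 (0.717) and C202R142 at 1.24 (0.882). Each had an adjusted p of 0.989 in limma.

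C100R097 had the largest of these differences after C238R016. Its log2 ratio ran from -5.07 to 3.05 on day 0, with a median of 0.09, and from -5.26 to 0.76 on day 5, with a median of -3.15. The fish took values either at -2.37 and below or at -0.02 and above, with none between. Day 0 replicates 1, 2 and 7 were low, which is 3 of 9 fish, and day 5 replicates 3, 4, 6, 7, 8, 9 and 10 were low, which is 7 of 10. In tank 1 the low fish were 1 of 4 on day 0 and 5 of 5 on day 5, and in tank 2 they were 2 of 5 on each day. The difference of -1.61 is thus a difference in how many fish were low, on a probe whose raw Cy5 signal ran from 97.5 to 27777. Its difference was -2.76 in tank 1 and -0.42 in tank 2, and the test of tank 1 against tank 2 gave an unadjusted limma p of 0.256 and an adjusted p of 0.977.

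C256R064 and C052R113 followed the same fish. Each was below -2 in 9 fish, 3 of day 0 and 6 of day 5, and all 9 were among the 10 fish low for C100R097. C179R097 was below -2 in 6 fish, 2 of day 0 and 4 of day 5, again all among those 10. Unlike C100R097, it had similar differences in the tanks, -1.49 in tank 1 and -1.60 in tank 2. Of its 10 day 5 fish, 9 lay below the day 0 mean and 0 had a log2 ratio above 0. The unadjusted limma p was 0.0136 and the adjusted p 0.989. The higher-on-day-5 probes C006R137, C121R013 and C133R147 were below -2 in 6 other fish, namely day 0 replicates 3, 4, 5, 8 and 9 and day 5 replicate 2, none of which was low for C100R097. The other probes of this direction departed from that split. C175R008 was below -2 in 8 fish, of which 1, day 5 replicate 9, was low for C100R097. C202R142 was below -2 in 11 fish, of which 2, day 0 replicate 1 and day 5 replicate 6, were low for C100R097. In day 0 replicate 2, for instance, C100R097 was at -4.25 and C006R137 at 2.34, while in day 0 replicate 4 they were at 3.05 and -3.71. Both these fish had eaten no soybean meal.

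For C006R137 the log2 ratio ran from -3.71 to 2.34 on day 0, with a median of -3.25, and from -3.75 to 2.04 on day 5, with a median of 0.09. Of the day 0 fish 3 had a log2 ratio above 0, and of the day 5 fish 5. The groups spanned nearly the same range. C175R008 was the probe whose difference rested most on 1 tank, at 3.17 in tank 1 and -0.49 in tank 2, with an unadjusted limma p of 0.0745 and an adjusted p of 0.977 for the contrast. Another fit had the first component of all 43627 probes over the 59 arrays as a covariate. It is not the component of the bright probes of the 19 arrays that is described below. The probes with the largest differences are among the 43627 that made the covariate, so their values in that fit are a description. In that fit the differences of several of these probes shrank by over 1.5 times. They were -0.69 for C100R097, -0.72 for C256R064, -0.66 for C052R113 and 0.73 for C006R137. For C121R013, C133R147 and C202R142 they were 0.70, 0.81 and 0.42. With slide as a term, that of C133R147 was 0.83. On the 3 slides with both days, where tank and day were mixed, C179R097 kept its sign on all 3. It was the only 1 of the 9 probes chosen only by size to do so, and the other 8 kept theirs on 2.

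**Figure D3:**
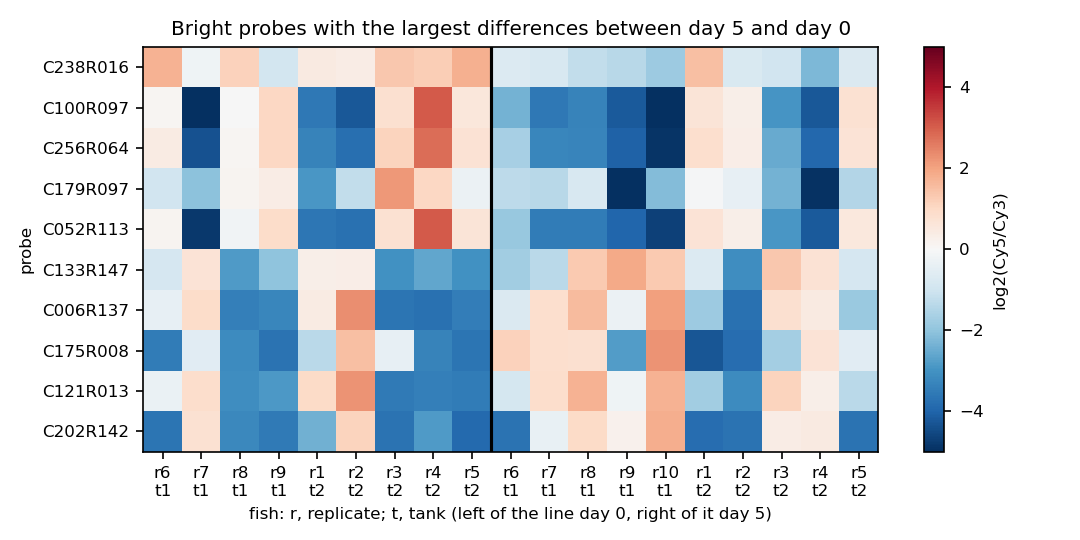
Log2(Cy5/Cy3), as colour from -5 (blue) to 5 (red), of the 10 bright probes with the largest differences (rows) in each of the 19 fish (columns, by replicate r and tank t, with day 0 left of the line and day 5 right of it). The dark blue cells of C100R097, C256R064 and C052R113 lie in the same fish, 3 of them on day 0, and in those fish C006R137 and C121R013 are near or above 0.

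The levels on the other days place these values. C238R016 had a mean log2 ratio of 0.77 ± 0.919 (SD, n = 9) on day 0 and 0.78, 0.24 and 0.29 on days 1, 2 and 3, then -0.91 ± 0.991 (SD, n = 10) on day 5 and 0.07 on day 7. C070R021 was at -0.20, -0.21, -0.15 and -0.04 on days 0 to 3, at 0.21 on day 5 and at -0.33 on day 7. C100R097 was below -2 in 3, 2, 2 and 2 of 10 fish on days 1, 2, 3 and 7, against 7 of 10 on day 5. Of the 29 named probes, 25 had their highest or lowest mean of the 6 days on day 5. The others had their highest mean on day 3. For C182R153 this day 3 mean was 0.52, against 0.35 for the day 5 fish. The same pair of means was -0.19 against -0.27 for C006R137 and -0.11 against -0.15 for C121R013. It was -0.70 against -0.74 for C175R008. For 28 of the 29 named probes, the day 7 mean lay nearer to that of day 0 than to that of day 5. These probes were chosen by their values on days 0 and 5, which are extreme in them by that choice, so the counts are a description with no test.

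The tanks gave different pictures. Against its own day 0 fish, tank 1 had 1188 bright probes at an unadjusted limma p under 0.05, or 7.23%, with 726 higher and 462 lower. Tank 2 had 186, or 1.13%, with 87 higher and 99 lower. Over all 43627 probes the shares were 5.90% in tank 1 and 2.61% in tank 2. In limma 0 probes passed the adjusted threshold in either tank, with smallest adjusted p among bright probes of 0.817 and 1.00. Of the 16429 bright probes, 334 changed by over 2-fold in tank 1 and 35 in tank 2, against 393 and 48 of all 43627 probes. The median size of a difference among bright probes was 0.21 in tank 1 and 0.11 in tank 2 on the log2 scale.

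The difference between tanks was itself not significant for any probe. The contrast of the change in tank 1 against that in tank 2 gave 0 probes past the adjusted threshold in limma. Its smallest adjusted limma p over all probes was 0.293. At an unadjusted limma p under 0.05 there were 593 bright probes, or 3.61%, against 4.28% of all probes. The tank counts, each out of 16429 bright probes, also rested on single fish. Without day 0 replicate 7, the low fish of tank 1 on day 0, the count in tank 1 was 3064, and without day 5 replicate 6 it was 1966. Without day 0 replicate 8 or 9 it was 702 or 673. In tank 2 the count was 312 without day 0 replicate 1, 111 without day 0 replicate 5, 431 without day 5 replicate 2 and 120 without day 5 replicate 3. The contrast gave 1313 without day 0 replicate 7, 941 without day 5 replicate 6 and 358 without day 0 replicate 2. In all of these fits, 0 probes passed the adjusted threshold in either tank. Unadjusted counts over all 43627 probes were not made for these fits. Whether the changes in count are particular to bright probes was therefore not tested.

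Across bright probes, the change in tank 1 and the change in tank 2 showed no linear relation, with a Pearson's r of -0.01 and the same sign in 50.1%. Probes are not independent, and r ran from -0.244 to 0.372 when 1 fish at a time was left out. Of all 43627 probes, 78 had an unadjusted limma p under 0.05 in each tank, 37 of them with the same sign. Among the 16429 bright probes, 9 had such a p in each tank, of which 5 had the same sign and 4 opposite signs. The 5 were C238R016, C058R167, C098R005, C174R053 and C163R100, and they are named because of that count. The same values chose these probes, so their values are a description and no separate check. C098R005 was at -0.39 in tank 1 and -0.34 in tank 2, C174R053 at 0.47 and 0.40, and C163R100 at 0.34 and 0.35. In tank 1 all 5 day 5 fish of C098R005, from -0.39 to 0.10, lay below all 4 day 0 fish, from 0.24 to 0.38, while in tank 2 the days overlapped.

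Probes with a small p within 1 tank or for the contrast had other values in the other tank. C220R142 ran from 0.74 to 1.25 in the 4 day 0 fish of tank 1 and from -0.12 to 0.63 in its 5 day 5 fish, without overlap. Its difference was -0.83 in tank 1, with an unadjusted limma p of 7.7e-05 and an adjusted p of 0.817, and -0.17 in tank 2, with an unadjusted limma p of 0.0171 and an adjusted p of 0.977 for the contrast. C046R080, the bright probe with the smallest p for the contrast, differed by 1.31 in tank 1, where day 5 fish ran from -0.36 to 1.36 and day 0 fish from -1.72 to -0.05, and by -0.61 in tank 2, with an unadjusted limma p of 2.0e-04 and an adjusted p of 0.977 for the contrast. In tank 2 the smallest p belonged to C063R101, which differed by -1.61, with day 0 fish from 0.44 to 2.18 and day 5 fish from -1.68 to 0.37, and by 0.48 in tank 1, with an unadjusted limma p of 0.0050 and an adjusted p of 0.977 for the contrast. The contrast includes the values that chose these probes, so the values are a description.

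**Figure D4:**
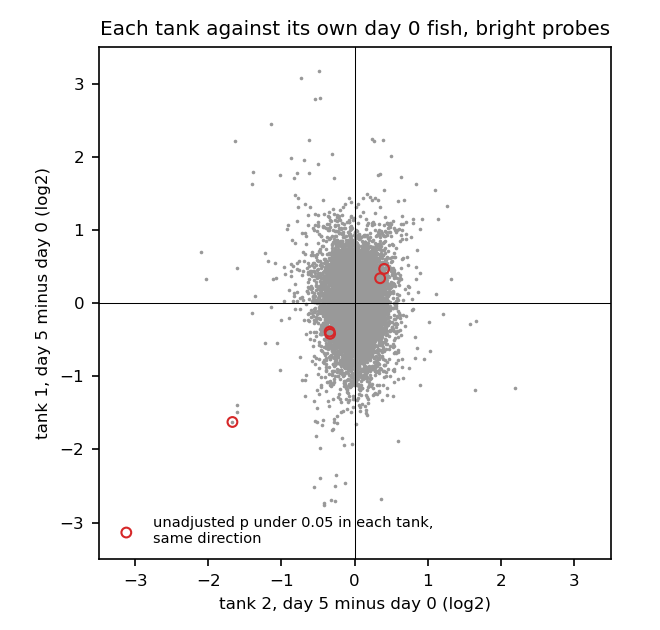
Difference between day 5 and day 0 of each bright probe in tank 2 (horizontal axis, log2) against that in tank 1 (vertical axis, log2), each against the day 0 fish of the same tank. The cloud is taller than wide, with 334 probes past 2-fold in tank 1 and 35 in tank 2, and has no slope. Red rings mark the 5 probes with an unadjusted p under 0.05 in each tank and the same direction.

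The profile over all bright probes was tested as 1 value over the possible divisions of the 19 fish into 9 and 10. The day explained 5.30% of the variation between fish, against a mean of 5.56% over all 92378 divisions (exact permutation p = 0.369, adjusted p = 0.517 over 7 such tests). Within tank 1 the share was 15.2% against a mean of 12.5% (exact permutation p = 0.254, adjusted p = 0.517). Within tank 2 it was 6.04% against 11.1% (exact permutation p = 0.897, adjusted p = 0.897).

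The main axis of variation had fish of each day on both sides. The first principal component of the bright probes, found without the day labels, held 46.4% of the variance and the second 9.84%. Scores on the first fell into separate ranges, with 9 fish at -12.0 or below and 10 at 21.8 or above. On day 0, 3 fish were in the lower range and 6 in the upper, and on day 5, 6 and 4. The 9 fish of the lower range were the same 9 in which C256R064 and C052R113 were below -2. Both are among the bright probes that made the component, so this is a description. The mean score was 10.1 ± 44.3 (SD, n = 9) on day 0 and -9.08 ± 38.0 (SD, n = 10) on day 5. The difference of -19.2 was smaller than the spread within either day (two-sided exact permutation p = 0.318, adjusted p = 0.517, and p = 0.317 with divisions made within tanks). In tank 1 the lower range held 1 of 4 fish on day 0 and 4 of 5 on day 5, and in tank 2 it held 2 of 5 on each day. The array medians overlapped between the lower and the upper range, with the highest Cy5 in the lower and the highest Cy3 in the upper. In the lower range they lay between 60 and 111 for Cy5 and between 55.5 and 73.5 for Cy3, and in the upper range between 58.5 and 91 for Cy5 and between 61.5 and 92 for Cy3. The part of signal strength in the scores and in the probes that follow them was not tested.

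**Figure D5:**
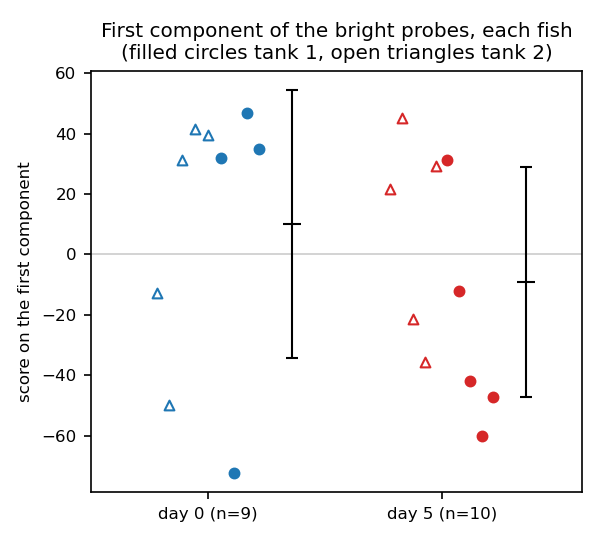
Score of each fish on the first principal component of the bright probes, by day, with the mean and standard deviation in black (9 fish of day 0 and 10 of day 5). Filled circles are tank 1 and open triangles tank 2. Each day has fish on both sides of a gap between -12.0 and 21.8.

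The spread between fish did not differ detectably between the days. The median standard deviation of bright probes was 0.343 on day 0 and 0.352 on day 5. The median log2 ratio of the standard deviations was 0.02, or 1.02-fold (two-sided exact permutation p = 0.896, adjusted p = 0.897). A standard deviation above 1 was found in 494 bright probes (3.01%) on day 0 and in 393 (2.39%) on day 5.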

How the data were processed

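The deposited scanner files hold, per the file headers, background-corrected median signal intensities of Cy5 and Cy3 for 45220 spots, with flags and no key to them. They name neither the scanner nor the correction method. The authors' deposited value table holds log2 ratios (matched to each array's Cy5/Cy3 at r of 0.997 to 0.998 over 14678 probes, column medians -0.0110 to 0.0252, so it is centred near 0). Direction follows the dyes in the labels. Left out were 1531 control spots, 62 probes with flag 1 on any array and 1 array titled tank 0. Values below 0 were set to 0, 50 was added to both channels, and loess was run within arrays. Limma 3.58.1 in R 4.3.3 fitted 59 arrays of 6 days by day, or by day and tank, with Benjamini-Hochberg adjustment over 43627 probes, and was tested on simulated data. Profile tests were exact permutations. The number of arrays limits precision.

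Named probes were the 10 bright probes with the smallest p in each direction among those with the same sign in both tanks, and the 5 largest differences in each direction. The first 3 by p in each direction are given in full. Of those chosen only by size, C100R097 and C006R137 are given with their ranges and the rest mainly by difference and standard error. Others are named where counts single them out. The members and lists were chosen with earlier results of these data known. Cell type marker lists gave no result, since probes could not be joined to genes. Replicate numbers do not pair fish, and replicates are separate fish per the labels. The alternatives covered offset, background, normalization, filters, terms, blocks, weights, tanks and each fish left out.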

Additional observations from a re-analysis of the deposited data

Results flagged for a closer look

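In 4 of 64 sets of fish tested, 1 fish lay far from the others of its day by Dixon's criterion, where chance gives about 3.2. For C238R016, day 5 replicate 1 was at 1.49, and the next fish at -0.69. For C259R069, day 0 replicate 6 was at 0.97, and the next at 0.19. For C182R153, day 0 replicate 9 was at 0.30, and the next at -0.17. For C174R053, day 0 replicate 7 was at 0.36, and the next at -0.04.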

How the results depend on the processing

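The count of 0 probes past the adjusted threshold held for day 5 against day 0 under every alternative run for it. For tank 1 against tank 2 it held under the alternatives run for that contrast, which were median centring, no offset, the value table, dim probes left out, array quality weights and each fish left out. The 601 bright probes at an unadjusted p under 0.05 became 2317 with array quality weights, 981 in tank 1 alone and 248 in tank 2 alone, and 351 to 1209 when 1 fish at a time was left out. As shares of bright probes these were 14.1%, 5.97%, 1.51%, and 2.14% to 7.36%, against 3.66% in the main fit. Over all probes the shares were 8.999%, 5.22%, 2.78%, and 3.27% to 5.81%, against 4.03% in the main fit. The shares over all probes thus moved in the same direction. The cause of these changes was not tested. In 16 other settings they numbered 423 to 620. The 423 were out of 12173 probes at a signal limit of 500, or 3.47%. The lowest share was 3.01%, with the value table, against 4.27% of all probes. The highest was 3.77%, with normexp background correction, against 4.00% of all probes. With slide as a term there were 505, or 3.07%, against 3.94% of all probes. That alternative was chosen after seeing the data, as was leaving fish out of the tank counts. The replicate block gave 569 bright probes, or 3.46%, against 3.88% of all probes, and 0 past the adjusted threshold. Same-numbered fish did not deviate together, with correlations of -0.725 to 0.337 over 9 pairs, and 0 of 9 correlated best with their own number. The log2 ratio of spreads ran from -0.0358 to 0.189 when 1 fish was left out and changed sign in 6 of 19 cases. Of 1044 values for the 29 named probes, 1043 kept their direction and side of the threshold. The exception was C175R008 at -0.49 in tank 2 alone. Some settings cannot change a difference or its direction. Examples are dim probes left out, only days 0 and 5 in the fit, and the array titled tank 0 placed with day 1. The named probes were chosen by their values in these same fish, 20 of them partly by the same sign in both tanks. These counts are therefore a description and no separate check. Dim probes are limited by signal near background and by the offset.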
